A study of Helianthus annuus with 12 samples.

Results

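The chaperone genes described here are 237 sunflower genes whose deposited description holds words for a DnaJ, HSP70, HSP90 or chaperonin protein. They were chosen by those words, leaving out hsp20 and small heat shock proteins, and by a level of at least 1 FPKM (fragments scaled by transcript length and by the mapped fragments of the library) in 3 or more of 12 libraries. They are 237 of the 48882 genes in the expression table. The words matched 328 descriptions, 304 of these genes had FPKM values, and 67 of the 304 were under the minimum. The 8 genes that reached 1 FPKM in 2 libraries, just outside the rule, had a median mean level of 0.501 FPKM, and the 9 genes that reached it in 3 libraries, just inside, had one of 0.715 FPKM. By family, 152 genes carry DnaJ words, 36 HSP70 words, 36 chaperonin words and 13 HSP90 words. The annotation names 13 of the 237 as new gene models, whose identifiers are written here without their species prefix, and the deposited identifiers are used throughout.

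HSP70 proteins hold unfolded stretches of other proteins and let them go in a cycle driven by ATP. DnaJ proteins, also called HSP40, bring clients to HSP70 and start its ATPase, and nucleotide exchange factors such as Fes1 (named in yeast) reset it. HSP90 works on clients that are close to folded, with partner proteins that pass them on from HSP70. Chaperonins are ring-shaped chambers in which a protein folds: the CPN60 type of chloroplasts and mitochondria is closed by a small GroES type lid, and the TCP-1 type works in the cytosol. Heat shock proteins are well known to accumulate in plant embryos as seeds mature and dry.

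The study sequenced RNA from whole seeds of 2 sunflower cultivars, 86-1 and L-1-OL-1, taken 27 and 17 days after flowering (DAF), which gives 4 groups of 3 libraries. These are 86-1 at 27 DAF, 86-1 at 17 DAF, L-1-OL-1 at 27 DAF and L-1-OL-1 at 17 DAF. By the labels, oleic acid was building up fast at 17 DAF and changed little at 27 DAF, which gives the stage comparison its question. The labels name no treatment or genotype beyond the cultivar and do not say which cultivar is richer in oleic acid. They also leave unsaid whether the libraries within a group are from different plants, and p-values here measure only the spread between the sequenced libraries, which may be technical. Since whole seeds were sampled, fewer cells of a type and less RNA per cell cannot be told apart.

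FPKM totals ran from 605655 to 683903 per library, and relative depth, read from the steps between low values, from 0.793 to 1.22 times that of 86-1 at 17 DAF replicate 1. Words of embryo storage proteins took 16.6% to 39.0% (27 DAF) and 10.5% to 33.9% (17 DAF) of the FPKM total of 86-1, and 3.23% to 4.92% (27 DAF) and 3.42% to 32.9% (17 DAF) of that of L-1-OL-1. Words of seed drying proteins (LEA proteins and dehydrins) took 2.29% to 4.20% (27 DAF) and 0.356% to 0.569% (17 DAF) of the total of 86-1, and 5.21% to 7.50% (27 DAF) and 0.546% to 4.14% (17 DAF) of that of L-1-OL-1. Words of the hull and secondary walls (63 genes) took 0.0403% to 0.0578% (27 DAF) and 0.0690% to 0.123% (17 DAF) in 86-1, and 0.0194% to 0.0302% (27 DAF) and 0.0439% to 0.0823% (17 DAF) in L-1-OL-1. Words of dividing cells (240 genes) took 0.293% to 0.409% (27 DAF) and 0.643% to 1.65% (17 DAF) in 86-1, and 0.288% to 0.336% (27 DAF) and 0.469% to 0.966% (17 DAF) in L-1-OL-1. Photosynthesis words (105 genes) and cuticle words (30 genes) took at most 0.168% and 0.0342% of any library. In storage and drying words L-1-OL-1 at 17 DAF spread widely, with replicate 1 high in storage words and replicate 3 high in drying words. Replicate 3 of 86-1 at 17 DAF stood apart in another way. Of 675 genes under 0.05 FPKM in the other 5 libraries of 86-1 and at 1 FPKM or more in all 6 of L-1-OL-1, 92.4% were above 0.05 FPKM in it, at a median of 9.77% of their mean in L-1-OL-1 at 17 DAF. For each of the other 11 libraries, tried the same way, the share was 0% to 4.26%, of 51 to 469 genes. The part of these differences in the results was not tested.

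Taken as a whole, the 237 chaperone genes stood highest in L-1-OL-1 at 27 DAF. They made up 0.481%, 0.525% and 0.820% of the FPKM total at 27 DAF and 0.559%, 0.811% and 0.789% at 17 DAF in 86-1. In L-1-OL-1 the shares were 1.44%, 1.31% and 1.38% at 27 DAF and 0.585%, 0.738% and 1.01% at 17 DAF. The 3 libraries of L-1-OL-1 at 27 DAF lay above the other 9, which overlapped between groups. The same 3 libraries lay below the other 9 in hull and secondary wall words and above them in seed drying words, and the part of either in the chaperone level was not tested. L-1-OL-1 at 27 DAF held the highest group mean for 119 of the 237 genes, and 86-1 at 27 DAF the lowest for 99. The order of the groups was not counted over all genes tested, so whether these counts are particular to chaperone genes was not tested.

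DnaJ genes had the largest sum of the families in each group. Their sum averaged 2360 ± 898 FPKM at 27 DAF and 2376 ± 425 at 17 DAF in 86-1, and 4995 ± 386 at 27 DAF and 2817 ± 1213 at 17 DAF in L-1-OL-1 (SD, n = 3 each). The summed chaperonin level averaged 908 ± 284 FPKM at 27 DAF and 1351 ± 373 at 17 DAF in 86-1. L-1-OL-1 had 2010.2 ± 138 at 27 DAF and 1117 ± 150.45 at 17 DAF. Genes with HSP70 words summed to 628 ± 59.5 FPKM at 27 DAF and 819 ± 182 at 17 DAF in 86-1. The levels in L-1-OL-1 were 990.3 ± 165 at 27 DAF and 844 ± 183 at 17 DAF. The 13 genes with HSP90 words, of which 5 are described as HSP90 proteins themselves, summed to 197 ± 87.1 FPKM at 27 DAF and 209 ± 31.1 at 17 DAF in 86-1. Libraries of L-1-OL-1 had 413 ± 82.2 at 27 DAF and 218 ± 60.1 at 17 DAF. For DnaJ, chaperonin and HSP90 the libraries of L-1-OL-1 at 27 DAF lay above all others, while for HSP70 they overlapped those of both groups at 17 DAF. A few genes carried much of some sums: gene6333 alone held 35.0% of the HSP70 level and gene64661 held 20.6% of the DnaJ level. The highest chaperonin gene held 9.23%. The highest gene with HSP90 words, the organizing protein gene12510, held 18.1% of their sum.

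**Figure D1:**
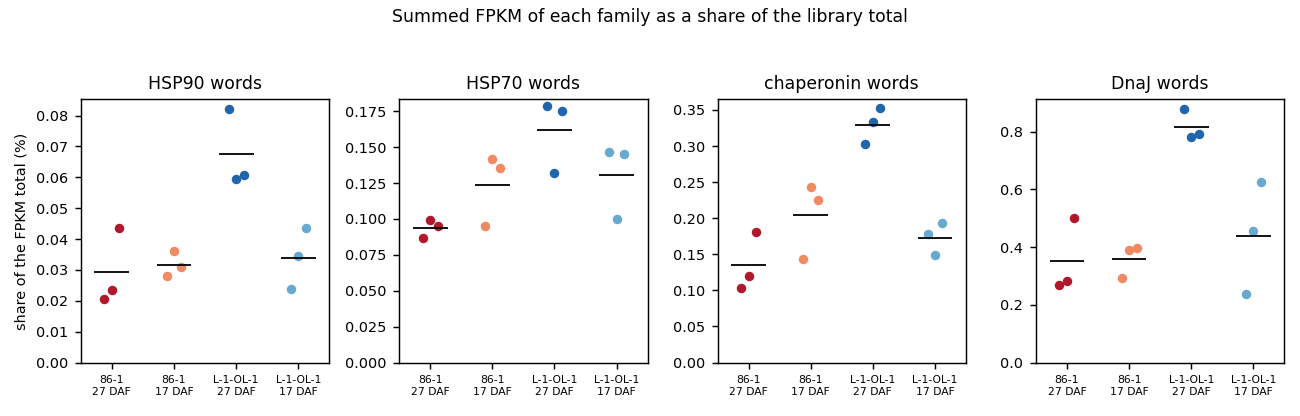
Summed FPKM of the genes of each family as a percentage of the library's FPKM total, with 1 point per library and a line at the mean of each group of 3. In the DnaJ, chaperonin and HSP90 panels every library of L-1-OL-1 at 27 DAF lies above the other 9, and in the HSP70 panel it does not.

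Fewer chaperone genes passed the test between cultivars at 17 DAF than at 27 DAF, and at 27 DAF most of those that passed were lower in 86-1. At 17 DAF, 13 of the 237 were higher in 86-1 (all genes tested: 15.6%) and 20 were lower (all genes tested: 11.4%), by limma on log2(FPKM + 1) with Benjamini-Hochberg adjustment over 30020 genes and an adjusted p below 0.05. At 27 DAF, 25 were higher in 86-1 (all genes tested: 21.2%) and 89 were lower (all genes tested: 27.1%). The median log2 difference over the 237 genes was -0.07 at 17 DAF and -0.47 at 27 DAF, against 0.00466 and -0.12 over all genes tested. The counts at 27 DAF held within a factor of 1.5 without any 1 library. At 17 DAF they depended on single libraries: the 13 became 23 without 86-1 replicate 1, and 7 without 86-1 replicate 2 or 3 or without L-1-OL-1 replicate 2, and the 20 became 44 without L-1-OL-1 replicate 1, 13 without 86-1 replicate 2 and 12 without L-1-OL-1 replicate 2 or 3. Scaling the libraries by the median of ratios moved the all-gene median at 27 DAF to 0.07 and the split of the 237 genes to 42 higher and 89 lower.

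Between stages, 17.3% of the chaperone genes passed the test in 86-1 and 46.8% in L-1-OL-1, near the 18.8% and 42.6% of all genes tested. Dividing-cell words, given above, were lower at 27 DAF than at 17 DAF in both cultivars, and their part was not tested. In L-1-OL-1, 67 rose at 27 DAF (all genes tested: 20.4%) and 44 fell (all genes tested: 22.3%), and under quantile normalization 90 rose and 34 fell. In 86-1, 7 rose (all genes tested: 4.62%) and 34 fell (all genes tested: 14.1%). The stage difference itself differed between the cultivars for 62 genes, being lower in 86-1 for 48 (all genes tested: 13.6%) and higher for 14 (all genes tested: 8.50%). The median stage difference was -0.22 in 86-1 and 0.25 in L-1-OL-1 on the log2 scale, against -0.20 and -0.00125 over all genes tested, and the median of the difference between them was -0.46, against -0.23.

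The 86-1 stage counts rested on both scaling and single libraries. Under median-of-ratios scaling, which moved the all-gene median in 86-1 to -0.03, 21 rose and 28 fell, and under quantile normalization 22 rose and 25 fell. The 34 that fell became 60 without 86-1 at 17 DAF replicate 1, 10 without its replicate 2, 11 without its replicate 3, 14 without 86-1 at 27 DAF replicate 1 and 15 without its replicate 2. The 7 that rose became 4 without 86-1 at 17 DAF replicate 2 or 3. In L-1-OL-1 the 44 that fell became 29 without replicate 3 at 27 DAF. For the difference between cultivars, the 48 became 29 and 32 without 86-1 at 17 DAF replicates 2 and 3, 32 without 86-1 at 27 DAF replicate 1, 29 without L-1-OL-1 at 27 DAF replicate 3 and 28 without L-1-OL-1 at 17 DAF replicate 2. The 14 became 25 without L-1-OL-1 at 17 DAF replicate 1 and 5 to 9 without any 1 of 9 others (all but it, 86-1 at 17 DAF replicate 1 and L-1-OL-1 at 17 DAF replicate 3).

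Most genes with words of the CPN60/TCP-1 type, the type of the ring-forming subunits, moved together at 27 DAF. They were grouped by description alone, and whether each is a ring subunit was not tested. Of 25 such genes, 18 (72.0%; all genes tested: 27.1%) were lower in 86-1 than in L-1-OL-1 at 27 DAF and 2 (8.0%; all genes tested: 21.2%) were higher. In L-1-OL-1, 16 rose at 27 DAF (64.0%; all genes tested: 20.4%) and 1 fell, and in 86-1, 7 fell (28%; all genes tested: 14.1%) and 0 rose. At 17 DAF 2 were higher in 86-1 (1 to 4 without any 1 library) and 1 was lower. The median log2 difference between cultivars was -1.46 at 27 DAF and 0.31 at 17 DAF, and the median stage difference was -0.75 in 86-1 and 1.02 in L-1-OL-1. The limma fit called the stage difference itself lower in 86-1 for 16 of the 25 (64.0%; all genes tested: 13.6%) and higher for 1. At an unadjusted p below 0.05, 13 fell and 0 rose in 86-1 by stage.

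These 25 genes summed to 648 ± 211 FPKM at 27 DAF and 971 ± 277 at 17 DAF in 86-1, and 1577 ± 119 at 27 DAF and 774 ± 109 at 17 DAF in L-1-OL-1 (SD, n = 3 each). For 13 of the 25 (52.0%), all 3 libraries of L-1-OL-1 at 27 DAF lay above the other 9, which was so for 63 of the 237 chaperone genes (26.6%) and 5833 of the genes tested (19.4%). In the alternatives tried, 15 to 21 of the 25 were lower in 86-1 at 27 DAF, among them 15 to 18 of these 18. The 16 that rose in L-1-OL-1 became 10 without replicate 3 at 27 DAF, and the 16 with a lower stage difference in 86-1 became 10 without L-1-OL-1 at 17 DAF replicate 2. The stage counts in 86-1 depended on the scaling: 3 rose and 4 fell under median-of-ratios scaling, and 4 rose and 2 fell under quantile normalization. None of the 7 that fell in the main fit changed direction in any alternative, so those that rose are other genes. The 7 became 15 without 86-1 at 17 DAF replicate 1. They became 1 without its replicate 2 or 3 or without 86-1 at 27 DAF replicate 1 or 2.

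The strongest of these subunits was gene54946, with 59.8, 68.3 and 103 FPKM at 27 DAF and 65.0, 104 and 93.8 at 17 DAF in 86-1. The cultivar L-1-OL-1 had 234, 251 and 246 at 27 DAF and 84.1, 73.4 and 108 at 17 DAF. Only L-1-OL-1 at 27 DAF stood apart, with no overlap with any other group. The log2 difference between 86-1 and L-1-OL-1 at 27 DAF was -1.69 ± 0.29 (SE; limma adjusted p = 0.000504), and the gene rose by 1.47 ± 0.29 with stage in L-1-OL-1 (adjusted p = 0.00211). In 86-1 its stage difference was -0.20 ± 0.29 (adjusted p = 0.726), and the difference between the stage differences was -1.66 ± 0.41 (adjusted p = 0.015).

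The subunit gene6922 had the lowest interaction of the 25, the stage difference in 86-1 minus that in L-1-OL-1. It had 20.1, 23.9 and 32.0 FPKM at 27 DAF and 35.1, 61.0 and 54.4 at 17 DAF in 86-1. For L-1-OL-1 the levels were 92.2, 97.8 and 119 at 27 DAF and 45.7, 31.2 and 36.1 at 17 DAF. At 27 DAF its mean was the lowest of the 4 groups in 86-1 and the highest in L-1-OL-1, and the 2 cultivars overlapped at 17 DAF. The log2 difference between cultivars at 27 DAF was -2.0 ± 0.28 (limma adjusted p = 0.000109), and the interaction was -2.38 ± 0.40 (adjusted p = 0.00205). Its rise in L-1-OL-1, 1.44 ± 0.28 (adjusted p = 0.00196), was called in every alternative, whereas its fall in 86-1, -0.95 ± 0.28 (adjusted p = 0.036), was lost under both other scalings, at adjusted p of 0.0634 and 0.0858, and without any 1 of 6 libraries, at up to 0.161.

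The interaction was below 0 for gene53636, gene32111 and gene80905 as well. In gene53636 the levels were 22.0, 23.1 and 32.0 FPKM at 27 DAF and 49.1, 94.5 and 79.9 at 17 DAF in 86-1. Levels in L-1-OL-1 were 66.4, 81.7 and 105 at 27 DAF and 74.4, 34.0 and 32.6 at 17 DAF. Here replicate 1 of L-1-OL-1 at 17 DAF was more than 2 times its other 2 libraries, and the rise in L-1-OL-1, 0.91 ± 0.36, missed the threshold (limma adjusted p = 0.061). The interaction was -2.38 ± 0.51 for gene53636 (adjusted p = 0.00779), -2.15 ± 0.42 for gene32111 (adjusted p = 0.00479) and -1.70 ± 0.46 for gene80905 (adjusted p = 0.0206, lost without any 1 of 6 libraries at up to 0.0592). In gene80905 the groups at 27 DAF were far apart, with 46.6, 58.3 and 73.7 FPKM in 86-1 and 115, 139 and 143 in L-1-OL-1, while at 17 DAF 86-1 had 87.6, 174 and 141 and L-1-OL-1 had 120.2, 70.8 and 80.0. The stages overlapped in L-1-OL-1, where its difference of 0.58 ± 0.32 missed the threshold (adjusted p = 0.167). The falls of gene53636, gene32111 and gene80905 in 86-1 were each lost without any 1 of 4 libraries of 86-1, at adjusted p of up to 0.0800, 0.0879 and 0.142, and under quantile normalization, at 0.0621, 0.0735 and 0.0859, and that of gene80905 also under median-of-ratios scaling, at 0.0541.

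Lower subunits followed. The interaction was -2.12 ± 0.39 for gene46138, -2.2 ± 0.40 for gene56708, -2.18 ± 0.36 for gene21657 and -1.91 ± 0.50 for gene39785, with limma adjusted p of 0.00345, 0.0031, 0.00177 and 0.0179, the last being 0.0519 without L-1-OL-1 at 17 DAF replicate 2. The gene21657 shares its best match with gene21660, so their split is uncertain, and the pair summed to 55.9 ± 11.6 FPKM at 27 DAF and 93.2 ± 23.8 at 17 DAF in 86-1. L-1-OL-1 had 138 ± 26.3 at 27 DAF and 66.6 ± 3.72 at 17 DAF. Means of gene46138 were 4.33 ± 1.2 FPKM at 27 DAF and 9.19 ± 2.81 at 17 DAF in 86-1, and 23.4 ± 2.37 at 27 DAF and 9.69 ± 1.95 at 17 DAF in L-1-OL-1 (SD, n = 3 each). The rise in L-1-OL-1 of gene56708, gene39785 and gene32111 was lost without 1 of 3 libraries each (L-1-OL-1 at 27 DAF replicate 2 or 3 or at 17 DAF replicate 2), at adjusted p of up to 0.0898. A subunit with another profile was gene68242, which had 11.5, 13.4 and 22.7 FPKM at 27 DAF and 8.04, 10.3 and 9.88 at 17 DAF in 86-1. The levels in L-1-OL-1 were 45.3, 47.6 and 44.0 at 27 DAF and 8.26, 10.4 and 16.8 at 17 DAF. It was low in both cultivars at 17 DAF and rose by 1.92 ± 0.30 in L-1-OL-1 (adjusted p = 0.000438), against 0.65 ± 0.30 in 86-1 (adjusted p = 0.164), with an interaction of -1.27 ± 0.42 (adjusted p = 0.0491) that was lost without any 1 of 9 libraries.

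**Figure D2:**
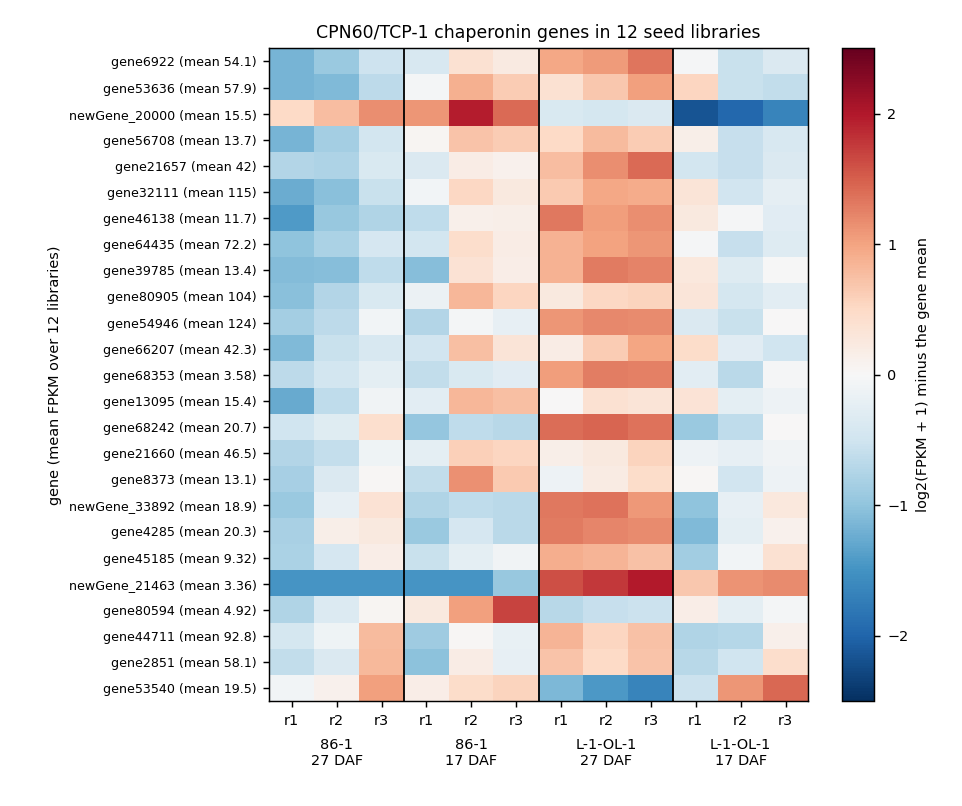
Heat map of the 25 CPN60/TCP-1 chaperonin genes (rows, with the mean FPKM over 12 libraries) in the 12 libraries (columns, r1 to r3 being the replicates), coloured by log2(FPKM + 1) minus the gene's mean and ordered by the interaction. Most rows are red in the 3 libraries of L-1-OL-1 at 27 DAF and blue in those of 86-1 at 27 DAF, newGene_20000 and gene53540 run the other way, and gene80594 is below its mean in both groups at 27 DAF.

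The CPN60/TCP-1 genes were also split by the length of their match to the protein database, after their values were seen. Of the 17 genes whose alignment covered 527 to 601 residues, 13 were lower in 86-1 at 27 DAF (all genes tested: 27.1%) and 11 rose in L-1-OL-1 (all genes tested: 20.4%). Of the 5 with shorter alignments, 4 were lower in 86-1 at 27 DAF and 4 rose in L-1-OL-1. The 3 with much longer alignments of 1477 to 1514 residues were mixed. Whether these 3 are ring-forming subunits was not tested. One of them, gene53540, ran opposite, with 14.9, 17.0 and 33.1 FPKM at 27 DAF and 17.8, 22.1 and 23.8 at 17 DAF in 86-1. Libraries of L-1-OL-1 had 6.67, 5.17 and 4.32 at 27 DAF and 10.5, 34.9 and 44.1 at 17 DAF. It fell by 2.07 on the log2 scale in L-1-OL-1 (SE 0.46, limma adjusted p = 0.00368) and was 1.76 ± 0.46 higher in 86-1 at 27 DAF (adjusted p = 0.00706). Its interaction, 2.02 ± 0.64 (adjusted p = 0.0418), was lost without any 1 of 11 libraries. The long gene80594 averaged 3.16 ± 1.15 FPKM at 27 DAF and 10.1 ± 5.26 at 17 DAF in 86-1. The cultivar L-1-OL-1 had 2.40 ± 0.198 at 27 DAF and 4.04 ± 0.719 at 17 DAF. Its fall in 86-1, -1.33 ± 0.34 (adjusted p = 0.0168), was lost without any 1 of 4 libraries of 86-1.

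The chaperonin gene with the largest cultivar difference at 17 DAF was the new model newGene_20000, aligned over 494 residues. It had 15.2, 18.7 and 24.8 FPKM at 27 DAF and 23.7, 43.9 and 29.7 at 17 DAF in 86-1. For L-1-OL-1 the levels were 7.86, 7.52 and 7.99 at 27 DAF and 1.57, 1.96 and 2.68 at 17 DAF. All 6 libraries of 86-1 lay above all 6 of L-1-OL-1. The log2 difference was 3.42 ± 0.27 at 17 DAF (limma adjusted p = 3.73e-06) and 1.2 ± 0.27 at 27 DAF (adjusted p = 0.00321), and the gene rose by 1.53 ± 0.27 with stage in L-1-OL-1 (adjusted p = 0.00103). The short gene4285, aligned over 92 residues at 69.6% identity, shares its best match with newGene_33892. The pair summed to 30.2 ± 12.1 FPKM at 27 DAF and 19.8 ± 2.39 at 17 DAF in 86-1. Levels in L-1-OL-1 were 80.2 ± 5.18 at 27 DAF and 26.6 ± 11.3 at 17 DAF.

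The 4 GroES type genes, which close the chaperonin chamber, are all given here although the rule for naming genes did not pick them. It did not pick gene14403 and gene2744, given below, either. Of the 4 GroES type genes, 3 were lower in 86-1 at 27 DAF (all genes tested: 27.1%) and 2 rose in L-1-OL-1 (all genes tested: 20.4%). The chloroplast chaperonin gene48803 averaged 33.5 ± 11.8 FPKM at 27 DAF and 41.7 ± 11.3 at 17 DAF in 86-1, and 101 ± 12.8 at 27 DAF and 42.0 ± 2.82 at 17 DAF in L-1-OL-1, with a log2 difference of -1.62 between cultivars at 27 DAF and a rise of 1.24 in L-1-OL-1. For gene22763 these differences were -1.44 and 1.37, and for gene2667 -1.23 and 0.42, the last not passing the test and the -1.23 lost without any 1 of 5 libraries. The fourth, gene51607, described as a 10 kDa chaperonin, had a difference of 0.07 between cultivars at 27 DAF and passed in no comparison. Among 4 genes with chaperonin-binding words, gene14403 was the single one lower in 86-1 at 27 DAF, at -0.99, and it rose by 1.09 in L-1-OL-1, calls lost without any 1 of 4 and of 3 libraries. Of 2 genes with RbcX words, which name an assembly factor of Rubisco, gene2744 was 1.58 higher in 86-1 at 27 DAF and fell by 1.13 in L-1-OL-1, at means of at most 2.84 FPKM, and the fall was lost without any 1 of 5 libraries.

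Of the 13 genes with HSP90 words, 8 (61.5%; all genes tested: 27.1%) were lower and 1 was higher in 86-1 at 27 DAF, and 6 (46.2%; all genes tested: 20.4%) rose and 1 fell in L-1-OL-1. In 86-1 the limma test called 0 of them by stage, and at an unadjusted p below 0.05, 2 fell and 0 rose. The 5 described as HSP90 proteins themselves had 3 lower in 86-1 at 27 DAF and 3 risers in L-1-OL-1, and both counts of 3 held without any 1 library or rose to 4. The others are 5 genes with an HSP90-like ATPase domain, 2 activators of the HSP90 ATPase and 1 organizing protein that links HSP70 with HSP90. The 5 with that domain carry gyrase or mismatch words and are not described as HSP90 proteins. They include gene70565 and gene38624, described as histidine kinase, DNA gyrase B and HSP90-like ATPase family proteins.

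HSP90 gene32399, aligned over 795 residues, had 10.5, 14.7 and 32.8 FPKM at 27 DAF and 8.45, 20 and 12.9 at 17 DAF in 86-1. L-1-OL-1 had 53.1, 61.9 and 57.3 at 27 DAF and 7.14, 11.2 and 18.7 at 17 DAF. The 3 libraries of L-1-OL-1 at 27 DAF lay above all others, and the other groups overlapped. It was lower in 86-1 at 27 DAF by a log2 difference of -1.68 ± 0.43 (limma adjusted p = 0.00701) and rose by 2.22 ± 0.43 in L-1-OL-1 (adjusted p = 0.00183), while its interaction, -1.84 ± 0.61 (adjusted p = 0.0496), was lost without any 1 of 9 libraries. The short HSP90 gene69667, aligned over 132 residues, had 5.74, 8.65 and 8.82 FPKM at 27 DAF and 5.77, 6.46 and 6.49 at 17 DAF in 86-1. The levels in L-1-OL-1 were 21, 17.3 and 18.7 at 27 DAF and 5.16, 6.47 and 7.93 at 17 DAF. It too stood apart in L-1-OL-1 at 27 DAF, with a log2 difference of -1.21 ± 0.23 between cultivars (adjusted p = 0.00104).

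The HSP90 genes gene65505, gene65503 and gene65502 share their best protein match, so reads may have been split among them and their separate levels are uncertain. In gene65505 the levels were 9.31, 9.39 and 16.7 FPKM at 27 DAF and 20.8, 13.3 and 7.94 at 17 DAF in 86-1. Libraries of L-1-OL-1 had 155, 28.9 and 40.1 at 27 DAF and 36.2, 41.4 and 50.7 at 17 DAF. All 6 libraries of 86-1 lay below all 6 of L-1-OL-1, with a log2 difference of -2.22 ± 0.53 at 27 DAF (limma adjusted p = 0.00454) and -1.62 ± 0.53 at 17 DAF (adjusted p = 0.0403), the second lost without any 1 of 6 libraries. In gene65503 the cultivar difference at 27 DAF was -0.23 ± 0.51 (adjusted p = 0.737), and the gene rose by 1.90 ± 0.51 in L-1-OL-1 (adjusted p = 0.0112). Its levels at 27 DAF were 26.5, 27.8 and 79.9 FPKM in 86-1 and 78.6, 32.6 and 37.8 in L-1-OL-1, which overlap. The 3 copies summed to 73.6 ± 49.2 FPKM at 27 DAF and 53.2 ± 14.6 at 17 DAF in 86-1. The cultivar L-1-OL-1 had 146 ± 103 at 27 DAF and 72.6 ± 14.1 at 17 DAF. Replicate 1 of L-1-OL-1 at 27 DAF held 265 FPKM of this sum, against 79.2 and 93.9 in the other libraries of its group.

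Among the partners of HSP90, the activator gene9443, which speeds up the ATPase, had at 27 DAF 3.43, 5.45 and 7.32 FPKM in 86-1, against 25.4, 22.3 and 23 in L-1-OL-1, a log2 difference of -1.99 ± 0.50 (limma adjusted p = 0.00603). At 17 DAF it had 3.61, 8.17 and 8.19 FPKM in 86-1, and its libraries in L-1-OL-1 spread over 4.98, 18.8 and 28.1. The organizing protein gene12510 averaged 34.5 ± 4.59 FPKM at 27 DAF and 58.7 ± 15.4 at 17 DAF in 86-1. For L-1-OL-1 the levels were 55.4 ± 7.46 at 27 DAF and 39.5 ± 4.49 at 17 DAF. Its cultivar difference at 27 DAF, -0.67 ± 0.26 (adjusted p = 0.0489), was lost without any 1 of 9 libraries. The genes with an HSP90-like ATPase domain are not described as partners. Of these, gene70565, aligned over 2543 residues, averaged at 27 DAF 1.33 ± 0.463 FPKM in 86-1, against 5.29 ± 1.01 in L-1-OL-1 (difference -1.44 ± 0.27, adjusted p = 0.000811). For gene38624 these means were 10.6 ± 1.90 FPKM in 86-1, against 21.3 ± 2.17 in L-1-OL-1 (difference -0.96 ± 0.22, adjusted p = 0.00354).

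**Figure D3:**
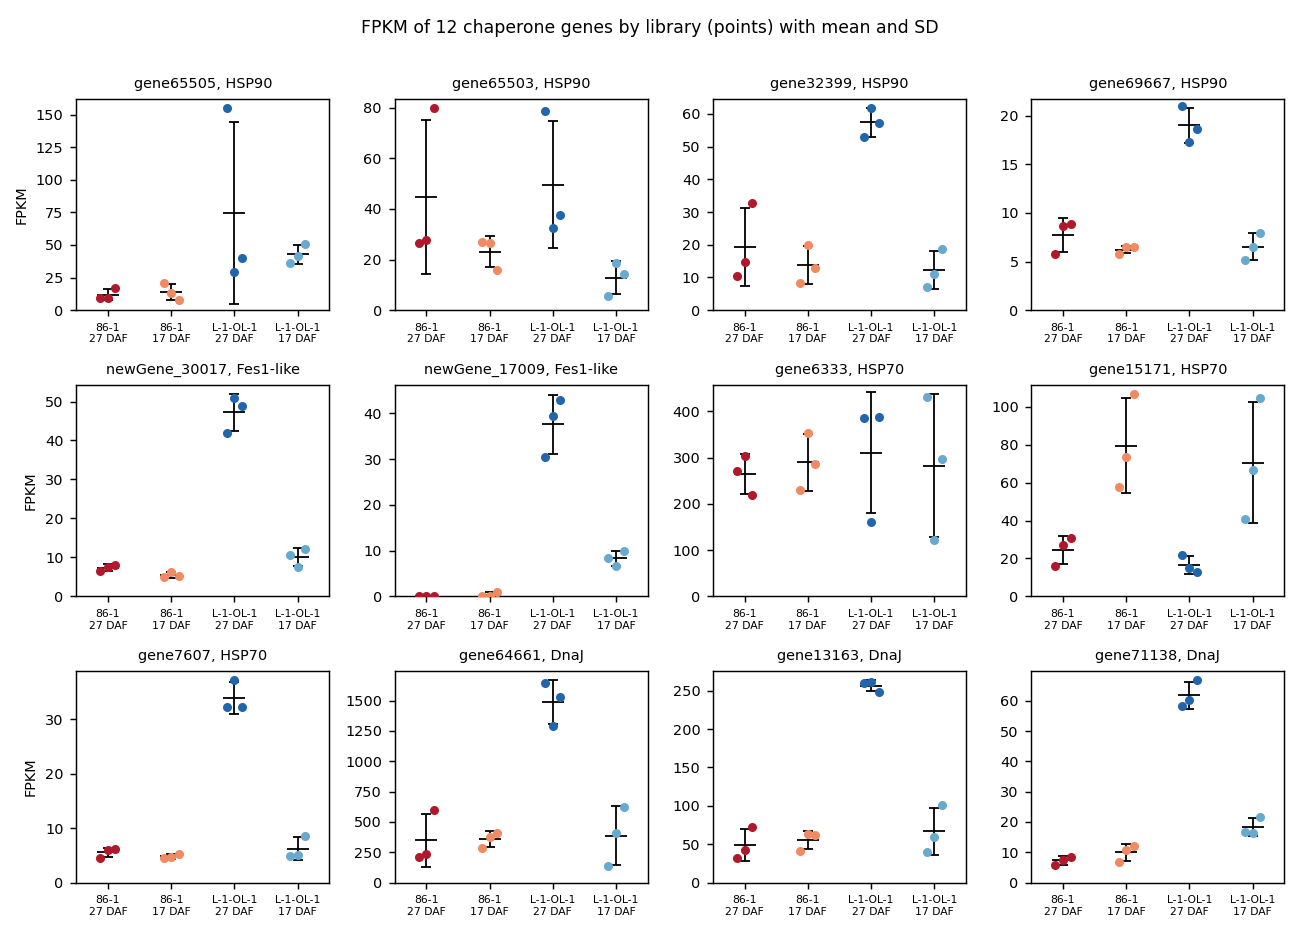
FPKM of 12 chaperone genes in each library (points), with the mean and SD of each group of 3 libraries (bars), on axes that start at 0. L-1-OL-1 at 27 DAF stands above the other groups in gene32399, gene69667, both Fes1-like genes, gene7607, gene64661, gene13163 and gene71138, gene6333 shows no such gap, and gene15171 is lower at 27 than at 17 DAF in both cultivars.

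HSP70 genes did not move as a group. Of the 34 described as HSP70 proteins, 6 were higher (17.6%; all genes tested: 21.2%) and 13 lower (38.2%; all genes tested: 27.1%) in 86-1 at 27 DAF. With stage, 2 rose (5.88%; all genes tested: 4.62%) and 9 fell (26.5%; all genes tested: 14.1%) in 86-1, and 7 rose (20.6%; all genes tested: 20.4%) and 11 fell (32.4%; all genes tested: 22.3%) in L-1-OL-1. The 9 became 4 without 86-1 at 27 DAF replicate 1, 5 without its replicate 3 and 3 without 86-1 at 17 DAF replicate 2 or 3. The 2 became 1 without 86-1 at 27 DAF replicate 2 or 3 and 0 without 86-1 at 17 DAF replicate 2 or 3. Under quantile normalization 3 rose and 6 fell in 86-1, and 9 rose and 9 fell in L-1-OL-1. The most abundant, gene6333, had 272, 304 and 218 FPKM at 27 DAF and 231, 353 and 285 at 17 DAF in 86-1. Levels in L-1-OL-1 were 385, 160.2 and 387 at 27 DAF and 431, 122 and 297 at 17 DAF. All groups overlapped, replicate 2 was lowest in both groups of L-1-OL-1, and its log2 differences of -0.33 to 0.21 passed in no comparison.

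Other HSP70 genes went both ways with stage. The gene15171 fell in both cultivars, with 16.1, 26.9 and 30.5 FPKM at 27 DAF and 57.7, 73.7 and 107 at 17 DAF in 86-1. L-1-OL-1 had 22.0, 15.0 and 12.9 at 27 DAF and 41.0, 66.5 and 104 at 17 DAF. The stages did not overlap in either cultivar, and the stage difference was -1.66 ± 0.38 in 86-1 (limma adjusted p = 0.0108; up to 0.058 without 86-1 at 27 DAF replicate 1 or 17 DAF replicate 3) and -1.96 ± 0.38 in L-1-OL-1 (adjusted p = 0.00186). The pair gene11913 and gene11914, which share a best match, summed to 34.4 ± 13.5 FPKM at 27 DAF and 127 ± 39.5 at 17 DAF in 86-1. The levels in L-1-OL-1 were 28.3 ± 8.18 at 27 DAF and 99.7 ± 66.3 at 17 DAF. The fall of gene11914 was -2.24 ± 0.49 in 86-1 (adjusted p = 0.00855) and -1.37 ± 0.49 in L-1-OL-1 (adjusted p = 0.0412; lost without any 1 of 6 libraries at up to 0.138). The low gene14457 fell in both as well, with a difference of -1.57 ± 0.36 in 86-1 (adjusted p = 0.0101; up to 0.0544 without 86-1 at 27 DAF replicate 1 or 17 DAF replicate 2) and -2.41 ± 0.36 in L-1-OL-1 (adjusted p = 0.000321).

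The HSP70 gene that rose in both cultivars was gene74068, described as heat shock protein 70t-2. It had 40.0, 51.9 and 76.6 FPKM at 27 DAF and 23.2, 19.3 and 18.3 at 17 DAF in 86-1. Libraries of L-1-OL-1 had 176, 96.2 and 118 at 27 DAF and 19.3, 32.3 and 47.2 at 17 DAF. Stages did not overlap in either cultivar, and the rise was 1.38 ± 0.36 in 86-1 (limma adjusted p = 0.0188; up to 0.0766 without any 1 of 4 libraries) and 1.99 ± 0.36 in L-1-OL-1 (adjusted p = 0.00113). The largest rise of an HSP70 gene in L-1-OL-1 was that of gene7607, with 4.5, 5.91 and 6.15 FPKM at 27 DAF and 4.48, 4.60 and 5.30 at 17 DAF in 86-1. The cultivar L-1-OL-1 had 32.3, 37.2 and 32.2 at 27 DAF and 4.88, 5.05 and 8.59 at 17 DAF. L-1-OL-1 at 27 DAF stood far above the rest, and the interaction of -2.15 ± 0.34 (adjusted p = 0.00146) and the cultivar difference at 27 DAF of -2.43 ± 0.24 (adjusted p = 6.02e-06) were called in every alternative.

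The reverse was seen in gene18765, which had 19.8, 24.8 and 30.0 FPKM at 27 DAF and 11.7, 7.2 and 7.28 at 17 DAF in 86-1. For L-1-OL-1 the levels were 16.1, 7.50 and 10 at 27 DAF and 11.1, 21.4 and 20.6 at 17 DAF. It rose in 86-1 by 1.43 ± 0.34 (limma adjusted p = 0.0118; up to 0.06 without 86-1 at 17 DAF replicate 2 or 3), had a difference of -0.62 ± 0.34 in L-1-OL-1 (adjusted p = 0.152), and its interaction was 2.05 ± 0.47 (adjusted p = 0.0108). The low gene6309 was at 27 DAF at 3.02 ± 0.942 FPKM in 86-1, against 0.607 ± 0.0761 in L-1-OL-1, a difference of 1.30 ± 0.23 (adjusted p = 0.000684). At 17 DAF, gene6334 was lower in 86-1, with a difference of -1.12 ± 0.36 (adjusted p = 0.0384), a call lost without any 1 of 8 libraries. Of the chloroplast HSP70 genes, named here after their values were seen, gene42649 averaged at 27 DAF 27.9 ± 17.4 FPKM in 86-1, against 78.4 ± 5.44 in L-1-OL-1 (difference -1.62), and rose by 1.95 with stage in L-1-OL-1. For gene9641 the averages were 22.0 ± 4.42 FPKM in 86-1, against 39.2 ± 10.2 in L-1-OL-1 (difference -0.80, a call lost under both other scalings and without any 1 of 4 libraries).

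The nucleotide exchange factors that reset HSP70 include newGene_17009, which had the largest cultivar difference of the 237 genes at 27 DAF. Both Fes1-like genes among the 237 are new models, aligned over 61 and 63 residues at 82.0% and 81.0% identity, and share a best match. The genes gene472 and gene57795, described as Fes1a and Fes1b, and genes with GrpE nucleotide exchange factor words lie outside the 237. They are counted among the further HSP70 and HSP90 partners below, and their own levels are not given. The values here therefore cover only these 2 short models. In newGene_30017 the levels were 6.44, 7.64 and 8.11 FPKM at 27 DAF and 5.07, 6.28 and 5.15 at 17 DAF in 86-1. Levels in L-1-OL-1 were 41.9, 50.9 and 48.8 at 27 DAF and 10.6, 7.48 and 12.2 at 17 DAF. In newGene_17009 they were 0.0508, 0.0253 and 0.127 FPKM at 27 DAF and 0.0319, 0.00941 and 1.04 at 17 DAF in 86-1. L-1-OL-1 had 30.5, 39.4 and 42.9 at 27 DAF and 8.29, 6.72 and 9.84 at 17 DAF. The second was near 0 in 5 libraries of 86-1 and highest there in replicate 3 at 17 DAF, the library noted above. For newGene_17009, sequence differences between the cultivars at the mapped stretch and a lack of transcript cannot be told apart. Log2 differences between cultivars at 27 DAF were -2.52 ± 0.23 and -5.16 ± 0.29 (limma adjusted p = 3.01e-06 and 2.26e-07), and both genes rose in L-1-OL-1, by 2.14 ± 0.23 and 2.06 ± 0.29 (adjusted p = 3.75e-05 and 0.000228). Their sum averaged 7.47 ± 0.891 FPKM at 27 DAF and 5.86 ± 0.660 at 17 DAF in 86-1, and 84.8 ± 10.8 at 27 DAF and 18.4 ± 3.93 at 17 DAF in L-1-OL-1, with no overlap between the cultivars at either stage.

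DnaJ genes, the co-chaperones of HSP70, are the largest of the families. Of 152, 15 were higher (9.87%; all genes tested: 21.2%) and 44 lower (28.9%; all genes tested: 27.1%) in 86-1 at 27 DAF. With stage, 5 rose (3.29%; all genes tested: 4.62%) and 17 fell (11.2%; all genes tested: 14.1%) in 86-1, and 33 rose (21.7%; all genes tested: 20.4%) and 30 fell (19.7%; all genes tested: 22.3%) in L-1-OL-1. Apart from the lower share of genes higher in 86-1 at 27 DAF, these shares lie near those of all genes. In 86-1 the 17 became 28 without replicate 1 at 17 DAF, 6 and 7 without its replicates 2 and 3, and 9 and 7 without replicates 1 and 2 at 27 DAF, and the 5 became 8 without L-1-OL-1 at 17 DAF replicate 3. Under median-of-ratios scaling 13 rose and 17 fell in 86-1, and 30 were higher and 45 lower in 86-1 at 27 DAF. In L-1-OL-1 the 30 became 18 without replicate 3 at 27 DAF, and under quantile normalization 50 rose and 23 fell. Among the abundant DnaJ genes, of 52 with a mean of at least 10 FPKM, 1 was higher and 20 were lower in 86-1 at 27 DAF (tested genes of that level: 19.5% and 28.5%), and 18 rose and 4 fell in L-1-OL-1 (tested genes of that level: 22.2% and 26.2%).

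The most abundant DnaJ gene and the highest of all 237, gene64661, had 209, 239 and 602 FPKM at 27 DAF and 286, 378 and 410.2 at 17 DAF in 86-1. The levels in L-1-OL-1 were 1643, 1291 and 1529 at 27 DAF and 133, 406 and 623 at 17 DAF. Replicate 3 was the highest of its group in 3 of 4 groups, and only L-1-OL-1 at 27 DAF stood apart. It was lower in 86-1 at 27 DAF by a log2 difference of -2.25 ± 0.55 (limma adjusted p = 0.00512) and rose by 2.19 ± 0.55 in L-1-OL-1 (adjusted p = 0.00767), and its interaction of -2.38 ± 0.78 (adjusted p = 0.0468) was lost without any 1 of 9 libraries. The next in level, gene7635, averaged 286 ± 87.8 FPKM at 27 DAF and 328 ± 41.1 at 17 DAF in 86-1, and 736 ± 40.2 at 27 DAF and 339.5 ± 127 at 17 DAF in L-1-OL-1, with a difference between cultivars at 27 DAF of -1.40 ± 0.36 (adjusted p = 0.00664). For gene7623 that difference was -1.03 ± 0.40 (adjusted p = 0.0490), and it was lost without any 1 of 9 libraries.

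These 3 genes align over 416 to 421 residues. In a split made after the values were seen, they are among 13 DnaJ genes aligned over 400 to under 450 residues. Of the 13, 9 were lower in 86-1 at 27 DAF (all genes tested: 27.1%), with these 3 genes among the 9. In L-1-OL-1, 7 of the 13 rose (all genes tested: 20.4%) and 1 fell (all genes tested: 22.3%). The other lengths were mixed: under 200 residues 8 of 49 were lower in 86-1 at 27 DAF and 12 rose and 11 fell in L-1-OL-1, from 200 to under 400 residues 12 of 45 were lower and 6 rose and 7 fell, and from 450 residues 15 of 45 were lower and 8 rose and 11 fell. Of the 13 genes, gene13163 had 32.5, 42.1 and 72.9 FPKM at 27 DAF and 41.2, 62.6 and 61.9 at 17 DAF in 86-1. Libraries of L-1-OL-1 had 260.4, 261 and 248 at 27 DAF and 39.6, 59.7 and 100.5 at 17 DAF. L-1-OL-1 at 27 DAF lay more than 2 times above every other library, with a difference between cultivars of -2.44 ± 0.37 (limma adjusted p = 0.000201) and an interaction of -2.25 ± 0.53 (adjusted p = 0.0116). Another, gene23233, fell in 86-1, to 3.79, 5.65 and 6.81 FPKM at 27 DAF, against 10.5, 23.3 and 25.1 at 17 DAF (difference -1.63 ± 0.31, adjusted p = 0.00427). In L-1-OL-1 it had 36.6, 32.6 and 29.3 FPKM at 27 DAF and 18.3, 21.3 and 20.4 at 17 DAF, a difference of 0.68 ± 0.31 that missed the threshold (adjusted p = 0.0974) although the stages did not overlap.

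Longer DnaJ genes of the same profile were gene71138 and gene58228, aligned over 604 and 607 residues. In gene71138 the levels were 5.69, 7.55 and 8.58 FPKM at 27 DAF and 6.84, 10.8 and 12.2 at 17 DAF in 86-1. The cultivar L-1-OL-1 had 58.1, 60.4 and 66.7 at 27 DAF and 16.8, 16.2 and 21.7 at 17 DAF. All 6 libraries of 86-1 lay below all 6 of L-1-OL-1, with a log2 difference of -2.94 ± 0.25 at 27 DAF (limma adjusted p = 2.15e-06) and -0.84 ± 0.25 at 17 DAF (adjusted p = 0.0282, lost without any 1 of 4 libraries). In gene58228 the difference at 27 DAF was -2.63 ± 0.29 (adjusted p = 1.56e-05), with 14.2, 17.1 and 24.2 FPKM in 86-1 and 124, 112 and 114 in L-1-OL-1. The low gene61472, described as an HSP40 family chaperone, had the largest rise of a DnaJ gene in L-1-OL-1, 2.52 ± 0.34 (adjusted p = 0.00019), to 25.7, 24.0 and 24.3 FPKM at 27 DAF, against 1.69, 3.76 and 6.07 at 17 DAF.

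Some short DnaJ genes rose with stage in 86-1. The largest rise was in gene80593, aligned over 175 residues, with 14.7, 24.8 and 49.5 FPKM at 27 DAF and 1.03, 0 and 0 at 17 DAF in 86-1. For L-1-OL-1 the levels were 61.1, 28.7 and 29.1 at 27 DAF and 0.355, 7.16 and 33.5 at 17 DAF. The rise was 4.43 ± 0.89 in 86-1 (limma adjusted p = 0.00537), and in L-1-OL-1 it was 2.40 ± 0.89 (adjusted p = 0.0472), lost without any 1 of 11 libraries. Replicate 3 of L-1-OL-1 at 17 DAF, the one highest in seed drying words of its group, lay within the range of 27 DAF. In gene38932 the pattern was alike, with 75.8, 48.1 and 159 FPKM at 27 DAF and 9.44, 6.56 and 6.71 at 17 DAF in 86-1. Levels in L-1-OL-1 were 85.6, 36.2 and 24.7 at 27 DAF and 5.81, 17.8 and 85.7 at 17 DAF. Its rise was 3.32 ± 0.77 in 86-1 (adjusted p = 0.0109), and in L-1-OL-1 the stages overlapped (0.97 ± 0.77, adjusted p = 0.332).

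The gene34392, with words of the DnaJ cysteine-rich domain, rose in both cultivars, with 35.0, 50.1 and 67.3 FPKM at 27 DAF and 5.82, 14.3 and 7.10 at 17 DAF in 86-1. L-1-OL-1 had 45.7, 45.0 and 48.8 at 27 DAF and 5.21, 13.6 and 22.4 at 17 DAF. Stages did not overlap, cultivars did, and the rise was 2.40 ± 0.45 in 86-1 (limma adjusted p = 0.00371) and 1.88 ± 0.45 in L-1-OL-1 (adjusted p = 0.00599). With gene78649 the rise was in 86-1, 2.08 ± 0.34 (adjusted p = 0.00183), and its difference in L-1-OL-1 was 0.49 ± 0.34 (adjusted p = 0.271). It had 27.7, 40.6 and 50.4 FPKM at 27 DAF and 12.6, 7.49 and 6.03 at 17 DAF in 86-1. The levels in L-1-OL-1 were 44.7, 23.4 and 31.9 at 27 DAF and 17.0, 28 and 24.6 at 17 DAF. Its interaction, 1.59 ± 0.48 (adjusted p = 0.0352), was lost without any 1 of 8 libraries.

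The largest fall in L-1-OL-1 was in gene4770, with DnaJ domain words, aligned over 161 residues. It had 8.27, 11.5 and 22.2 FPKM at 27 DAF and 12, 16.7 and 15.7 at 17 DAF in 86-1. Libraries of L-1-OL-1 had 0.551, 0 and 0 at 27 DAF and 7.38, 29.8 and 37.9 at 17 DAF. L-1-OL-1 at 27 DAF lay below all other libraries, and the interaction was 4.05 ± 0.72 (limma adjusted p = 0.00281), called in every alternative. Other DnaJ genes that fell in L-1-OL-1 were gene38147 (-2.09 ± 0.32), gene17793 (-2.52 ± 0.36) and gene61070 (-2.51 ± 0.40) with adjusted p of 0.000426, 0.000248 and 0.00049. The last shares its best match with gene61058 and gene61059, and the 3 summed to 5.0 ± 2.39 FPKM at 27 DAF and 12.4 ± 3.86 at 17 DAF in 86-1. The cultivar L-1-OL-1 had 1.10 ± 0.804 at 27 DAF and 14.1 ± 6.58 at 17 DAF. The gene38147 averaged 3.93 ± 1.67 FPKM at 27 DAF and 4.36 ± 0.208 at 17 DAF in 86-1. For L-1-OL-1 the levels were 0.608 ± 0.557 at 27 DAF and 5.77 ± 1.88 at 17 DAF. In 86-1, gene23002 fell the most, to 0.352 ± 0.282 FPKM at 27 DAF, against 9.91 ± 3.71 at 17 DAF (difference -2.98 ± 0.68, adjusted p = 0.0104).

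**Figure D4:**
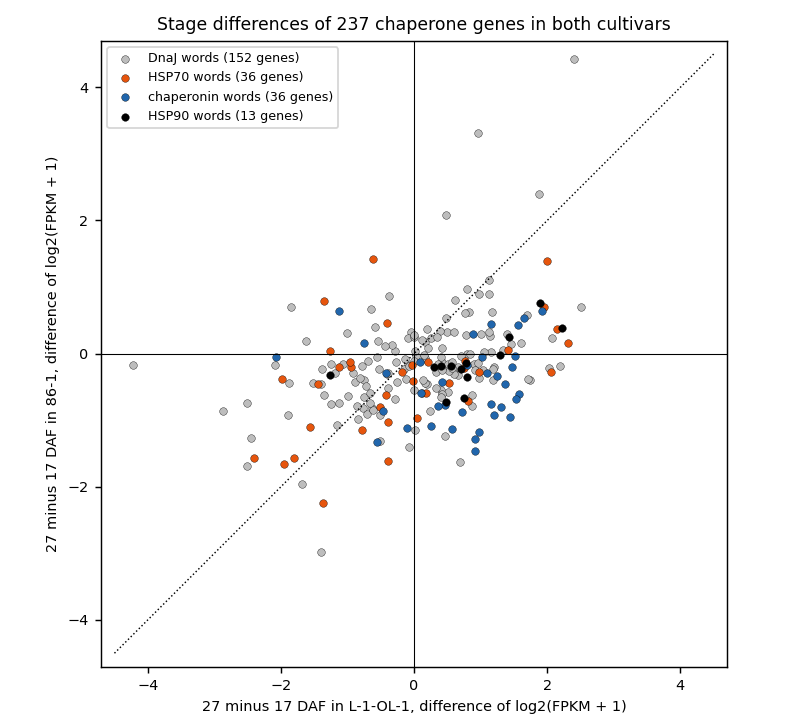
Stage difference (27 minus 17 DAF, on the log2(FPKM + 1) scale) of each of the 237 genes in L-1-OL-1 (horizontal axis) and in 86-1 (vertical axis), coloured by family, with a dotted line where both are equal. Most points of genes with chaperonin words (24 of 36) and HSP90 words (9 of 13) lie at the lower right. There the difference is above 0 in L-1-OL-1 and below 0 in 86-1. Points of genes with HSP70 words lie most often at the lower left (18 of 36).

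By sign alone, 89 of the 237 genes had a stage difference above 0 in L-1-OL-1 and below 0 in 86-1, and 18 had the reverse. Both differences were below 0 for 77 genes and above 0 for 50. By the test, 15 genes fell in both cultivars, 3 rose in both, and 4 rose in L-1-OL-1 and fell in 86-1. Neither the signs nor these joint calls were counted over all genes tested. The median stage difference of all genes tested was itself -0.20 in 86-1 and -0.00125 in L-1-OL-1. The sign in 86-1 depends on the scaling given above. In all, 166 of the 237 genes passed in at least 1 of the 5 comparisons and 71 in none. The matching share of all genes tested was not counted.

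A few chaperone genes had a level in only 1 cultivar by limits set after the values were seen (under 0.5 FPKM in all 6 libraries of one, at least 1 FPKM in all 6 of the other). In 86-1 only were 3 of 237 (1.27%; all genes tested: 2.2%), and in L-1-OL-1 only 4 (1.69%; all genes tested: 1.76%). Those of 86-1 are gene75082 and newGene_21762, with DnaJ words, and newGene_36280, with HSP70 words. The first had 4.37, 6.71 and 8.34 FPKM in 86-1 at 27 DAF and 4.43, 5.57 and 5.35 at 17 DAF, and is listed at 0 in all 6 libraries of L-1-OL-1. Those of L-1-OL-1 are gene58975 and gene65589 with HSP70 words, gene20544 with DnaJ words and newGene_21463 with chaperonin words. In gene58975 the levels were 0, 0 and 0.0240 FPKM at 27 DAF and 0, 0 and 0.289 at 17 DAF in 86-1. Levels in L-1-OL-1 were 11.6, 7.93 and 10.5 at 27 DAF and 3.93, 6.47 and 6.04 at 17 DAF. In all 4 genes of L-1-OL-1 the highest value in 86-1 was that of replicate 3 at 17 DAF, from 0.289 to 0.438 FPKM. Several of the 7 are short models aligned over as few as 31 residues, so sequence differences between the cultivars at the mapped stretch and a lack of transcript cannot be told apart.

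Other genes of the folding machinery, in lists built from description words with the 237 genes left out, are set here against the shares of all genes tested given above: 21.2% higher and 27.1% lower in 86-1 at 27 DAF, 4.62% rising and 14.1% falling in 86-1, and 20.4% rising and 22.3% falling in L-1-OL-1. Of 8 genes named T-complex proteins, subunits of the cytosolic ring, 6 (75%) were lower and 1 higher in 86-1 at 27 DAF, 4 (50%) fell in 86-1 with stage, and 0 passed in L-1-OL-1 (limma; 1 rose at an unadjusted p below 0.05). Of 16 prefoldin genes, which pass clients to that ring, 6 (37.5%) were lower and 0 higher in 86-1 at 27 DAF (limma; 8 and 0 unadjusted). With stage, 0 rose and 2 (12.5%) fell in 86-1, and 3 (18.8%) rose and 1 fell in L-1-OL-1. Of 17 genes of folding in the endoplasmic reticulum, 11 (64.7%) fell with stage in 86-1 (13 unadjusted) and 8 (47.1%) fell in L-1-OL-1 (10 unadjusted), while by limma 0 rose in either cultivar, also unadjusted. They took 0.106% to 0.119% (27 DAF) and 0.286% to 0.411% (17 DAF) of the FPKM total of 86-1, and 0.0743% to 0.131% (27 DAF) and 0.155% to 0.376% (17 DAF) of that of L-1-OL-1. At 27 DAF, 6 of these 17 genes (35.3%) were higher in 86-1 and 1 (5.88%) was lower. Of 51 small heat shock proteins, 13 (25.5%) rose and 2 (3.92%) fell in 86-1, and 16 (31.4%) rose and 4 (7.84%) fell in L-1-OL-1. Between cultivars at 27 DAF, 9 of the 51 (17.6%) were higher in 86-1 and 13 (25.5%) were lower. Of 18 heat stress transcription factors, 2 (11.1%) were higher and 6 (33.3%) lower in 86-1 at 27 DAF, and 4 (22.2%) rose and 4 fell in L-1-OL-1. Of 62 immunophilins, 10 (16.1%) were higher and 18 (29.0%) lower in 86-1 at 27 DAF, and of 22 further HSP70 and HSP90 partners, 4 (18.2%) were higher and 7 (31.8%) lower, both near the shares of all genes. Of 5 Clp and HSP100 genes, 2 rose in L-1-OL-1 and 1 in 86-1, and at 27 DAF 1 was higher and 0 lower in 86-1.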

How the data were processed

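RNA of sunflower seeds was sequenced in 12 libraries, 3 in each of 4 groups of cultivar and stage. The authors deposited FPKM per gene, with descriptions from a protein database. The tools named in the submitters' processing notes are RSEM 1.2.12, HISAT2 2.0.4, DESeq2 1.4.5 and Bowtie2 2.2.5, without their roles; genome build: not given in the sources used here. The deposited annotation table gives, per the file headers, a score and the identity of each gene's best match, and the aligned residues and percent identity were read from the values of the identity column. No counts were used, so depth is known only in relative terms, and FPKM of a library depend on what its most abundant genes take.

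Genes with at least 1 FPKM in 3 of the 12 libraries (30020) were fitted together on log2(FPKM + 1) with limma 3.58.1 in R 4.3.3, with 1 mean per group, a mean-variance trend, 2-sided tests and Benjamini-Hochberg adjustment over all of them at 0.05. This scale understates changes of low genes. The fit was tested on simulated data with independent noise and no shifts of whole libraries. That test does not bear on the scaling or on single libraries. The 5 comparisons were the cultivars at each stage, the stages in each cultivar, and the interaction. Named genes were the 3 highest of each family and, per comparison and family, up to 3 called genes with the largest difference in each direction. These had 5 FPKM or more in the higher group and no overlap, which was not asked for in the interaction. Others are marked. The members, lists and role groups were chosen with earlier results of these data known. Alternatives were another pseudocount (0.1), no filter or a mean of 5 FPKM, median-of-ratios scaling, quantile normalization, a replicate block, the 6 libraries of a contrast alone and each library left out. Protein and promoter sequences were not analysed here.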

Additional observations from a re-analysis of the deposited data

Results flagged for a closer look

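For 35 named genes the stage difference in 86-1 differed from that in L-1-OL-1 by the limma test of the interaction (adjusted p below 0.05). The values below are the stage difference in 86-1 minus that in L-1-OL-1 on the log2 scale, and no cause was tested.

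Most of the chaperonin genes had a lower stage difference in 86-1. The interaction was -1.66 for gene54946, -2.15 for gene32111, -1.70 for gene80905, -2.22 for newGene_20000, -0.97 for newGene_21463, -2.12 for gene46138, -1.91 for gene39785, -2.38 for gene53636, -2.20 for gene56708, -1.27 for gene68242, -2.18 for gene21657 and -2.38 for gene6922. It was 2.02 for the long gene53540. The newGene_21463 is listed at 0 in 5 of the 6 libraries of 86-1, so its value says little about a stage difference there, and the call was lost without any 1 of 10 libraries. Without single libraries the calls of gene80905 (any 1 of 6), gene39785 (1), gene68242 (9) and gene53540 (11) were lost too.

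Of the genes with HSP90 words, gene32399 had -1.84, gene69667 -1.17, gene38624 -1.41, gene70565 -1.31 and the organizing protein gene12510 -1.20. The calls were lost without any 1 of 9 libraries for gene32399, 6 for gene69667, 7 for gene70565 and 7 for gene12510, at adjusted p of up to 0.124, 0.0609, 0.073 and 0.094. Of those with HSP70 words, gene7607 had -2.15, the Fes1-like newGene_17009 and newGene_30017 had -2.33 and -1.77, and gene18765, gene6309 and gene914 had 2.05, 1.61 and 2.13. The newGene_17009 is near 0 in 5 of the 6 libraries of 86-1, and its call was lost with a pseudocount of 0.1 (adjusted p = 0.0676). The call for gene914 was lost in 15 alternatives.

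Of the DnaJ genes, the interaction was -2.38 for gene64661, -2.10 for gene71138, -2.14 for gene58228, -2.25 for gene13163, -1.81 for gene61472, -1.83 for newGene_14702 and -2.31 for gene23233. It was 1.59 for gene78649, 4.05 for gene4770, 1.77 for gene17793 and 1.92 for gene38147. The calls were lost without any 1 of 9 libraries for gene64661, 8 for gene78649, 7 for gene17793 and 3 for gene61472.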

How the results depend on the processing

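Counts of the 237 genes depended on the filter, the scaling and single libraries, and the cause was not tested. Between cultivars at 17 DAF, the 13 higher in 86-1 became 3 at a mean of at least 5 FPKM, 7 with the 6 libraries alone and 6 with L-1-OL-1 at 17 DAF replicate 1 as its only library, a setting chosen after seeing the data, and the 20 lower became 5, 12 and 8. At 27 DAF the 25 higher became 7 at a mean of 5 FPKM and 42 under median-of-ratios scaling. With stage in 86-1, the 7 that rose became 21 under median-of-ratios scaling and 22 under quantile normalization, and the 34 that fell became 17 at a mean of 5 FPKM. In L-1-OL-1 the 44 that fell became 17 at that mean. For the interaction the 14 higher became 7 with no filter, 4 at that mean, 25 under median-of-ratios scaling and 5 with that only library. Fewer genes can pass at a mean of 5 FPKM. Leaving out each library in turn gave 7 to 23 higher and 12 to 44 lower at 17 DAF, 18 to 29 and 69 to 96 at 27 DAF, 4 to 10 and 10 to 60 with stage in 86-1, 47 to 79 and 29 to 52 in L-1-OL-1, and 5 to 25 and 28 to 62 for the interaction. Where an arm keeps 1 library, it is assumed to vary like the other groups. Between libraries with the same replicate number, deviations from the group means had correlations of -0.226 to 0.121. Whether these libraries share a batch or a pairing was not tested. With replicate number as a block, 16 were higher and 19 lower at 17 DAF, 28 and 95 at 27 DAF, 9 and 42 with stage in 86-1, 15 and 61 for the interaction, and 76 and 45 with stage in L-1-OL-1. Of 158 calls of the 60 named genes, 103 held in every alternative run and none changed direction. The 6 libraries of 1 contrast cannot give an interaction.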
